A study of Mus musculus with 10 samples.

Results

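The genes described here carry pyruvate across its branch points in the fat cell. They were taken by symbol from the deposited count table, with 1 row kept per gene identifier, and all 10 were found among its 40501 gene identifiers. They are Mpc1 and Mpc2 (the mitochondrial pyruvate carrier), Pdha1, Pdhb, Dlat and Dld (the catalytic parts of the pyruvate dehydrogenase complex), Pdk2 and Pdk4 (kinases that switch the complex off), Pcx (pyruvate carboxylase) and Pck1 (cytosolic phosphoenolpyruvate carboxykinase). The data are RNA-seq libraries of inguinal white adipose tissue, a subcutaneous depot, from male mice of a C57/BL6J background on chow. One group is PexRAP-AKO, Cre-positive mice with PexRAP (ADHAPR, the product of Dhrs7b) deleted in adipose tissue (5 libraries, replicates 1, 2, 3, 5 and 6). The other is Control, Cre-negative mice (5 libraries, replicates 2, 3, 5, 7 and 8). The labels call the mice of both groups 8 weeks old and also state 8 weeks on chow before harvest, which leaves the exact age unclear. The promoter that drives Cre is not given in the sources used here, and the tissue also holds cells without Cre.

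Pyruvate made by glycolysis enters mitochondria through a carrier built of the proteins MPC1 and MPC2. Inside, the pyruvate dehydrogenase complex turns it into acetyl-CoA, while pyruvate carboxylase turns it into oxaloacetate, and citrate built from both can leave the mitochondrion to feed fatty acid synthesis. PDK kinases phosphorylate the E1 alpha subunit and stop the complex, and PDK4 is the isoform best known for its induction by fasting and fatty acids. In fat cells, cytosolic phosphoenolpyruvate carboxykinase serves glyceroneogenesis, the supply of glycerol 3-phosphate for triglyceride from carbon that is not glucose.

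The proximal promoters of 4 of these genes are shown, each gene picked for a trait described further on. Pdhb is an enzyme subunit that varied with its partners, Pdk4 is the only one of the 10 whose groups did not overlap, Pcx is the carboxylase, and Pck1 is the only one with a negative fold change. Groups without overlap were seen in 508 of all 14913 genes tested, counting both directions. The windows of the 4 genes follow. Each window is the 250 bases before the RefSeq start site in build GRCm38.p6, read 5′ to 3′ on the gene's strand. For Pcx, which has a second start site further downstream, the window of the upstream site is shown. Capitals mark every match, on either strand, to a CCAAT box (CCAAT), a GC box (GGGCGG), an E-box (CACGTG), a nuclear receptor half-site (AGGTCA) or a cAMP response element (TGACGTCA or TTACGTCA). A CCAAT box on the other strand reads ATTGG. No 2 of these motifs overlap in the 4 windows.
Pdhb (chr14:8172993-8173242, minus strand): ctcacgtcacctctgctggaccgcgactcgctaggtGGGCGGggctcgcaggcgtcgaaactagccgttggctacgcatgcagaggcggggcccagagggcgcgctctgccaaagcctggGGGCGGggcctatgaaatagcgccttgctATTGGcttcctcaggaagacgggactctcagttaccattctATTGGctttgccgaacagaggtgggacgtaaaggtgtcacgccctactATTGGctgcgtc
Pdk4 (chr6:5496279-5496528, minus strand): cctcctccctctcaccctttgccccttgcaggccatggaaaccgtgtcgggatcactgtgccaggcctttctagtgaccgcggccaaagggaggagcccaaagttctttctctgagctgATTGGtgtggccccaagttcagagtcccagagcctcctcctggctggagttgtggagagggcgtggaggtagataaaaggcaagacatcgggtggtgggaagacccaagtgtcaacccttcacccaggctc
Pcx (chr19:4510222-4510471, plus strand): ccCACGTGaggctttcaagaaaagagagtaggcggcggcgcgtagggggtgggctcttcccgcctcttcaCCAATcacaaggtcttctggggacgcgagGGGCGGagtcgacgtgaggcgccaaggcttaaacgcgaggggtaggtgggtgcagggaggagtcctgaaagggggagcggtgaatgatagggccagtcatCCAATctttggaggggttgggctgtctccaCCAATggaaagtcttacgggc
Pck1 (chr2:173152823-173153072, plus strand): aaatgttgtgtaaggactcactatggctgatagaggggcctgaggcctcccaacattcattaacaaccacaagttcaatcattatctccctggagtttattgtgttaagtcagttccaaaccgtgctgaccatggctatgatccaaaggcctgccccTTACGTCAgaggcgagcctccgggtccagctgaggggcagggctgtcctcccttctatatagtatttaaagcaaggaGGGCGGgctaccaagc

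In the same window RefSeq had an entry for all 10 genes, 3 of them (Mpc1, Pdk2 and Pcx) with a second start site, which makes 13 windows. A CCAAT box was found in 7 of the 13 windows (53.8%), against 33.8% of 32851 mouse promoter windows of the same length. A GC box was found in 7 of 13 (53.8%), against 32.7% of all windows. Pdhb held 3 CCAAT matches, which begin 101, 60 and 12 bases before the start, and Pcx held 3 in the window shown. Pck1 alone held a cAMP response element, TTACGTCA, which begins 93 bases before the start. That motif was in 1.98% of all windows. E-boxes were found in the first windows of Pdk2 and Pcx (6.02% of all windows), and a nuclear receptor half-site only in the second Mpc1 window (4607 of the 32851 windows). The second windows of Pdk2 and Pcx held no match to any of these motifs. Which start site is used in this tissue was not tested. These are letter matches and describe the sequence only.

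Library totals ran from 11274865 to 16513769 counts in PexRAP-AKO and from 11593437 to 19881168 counts in Control. The targeted gene Dhrs7b averaged 19.9 ± 2.26 CPM in PexRAP-AKO and 82.4 ± 12.8 CPM in Control (SD, n = 5 each; log2 fold change -2.05, edgeR adjusted p = 1.54e-05), where CPM is the count scaled to library size after TMM normalisation. White adipocyte markers (8 genes, Adipoq, Plin1 and Fabp4 among them) summed to 30863 to 40057 CPM in PexRAP-AKO and 31932 to 42305 CPM in Control libraries, so the labelled tissue carries its defining transcripts. Brown adipocyte markers (11 of 12 tested, Ucp1 and Cidea among them; Zic1 did not pass the low-count filter) summed to 592 to 2964 CPM in PexRAP-AKO and 268 to 2293 CPM in Control. Skeletal muscle markers (11 of 12 tested) summed to 52.9 to 161 CPM in PexRAP-AKO and 51.7 to 1457 CPM in Control, with Ckm at 0 in PexRAP-AKO 2. T and B cell markers (11 of 14 tested) summed to 13.5 to 175 CPM in PexRAP-AKO and 12.9 to 57.1 CPM in Control. PexRAP-AKO 6 was highest for T and B cell markers and for epithelial markers (30.9 CPM), and Control 8 for skeletal muscle markers. Of the muscle markers, 11 of 11 had a negative log2 fold change (6 at an unadjusted p under 0.05), and of the endothelial markers 8 of 8 (3 at that level), with 0 past edgeR's adjusted threshold. T and B cell markers had a positive log2 fold change in 11 of 11 (3 at that level), and brown adipocyte markers in 11 of 11 (2 at that level), again with 0 past the adjusted threshold. Of all genes tested, 6.44% were lower and 9.01% higher at that level, and 50.1% had a negative log2 fold change. Cfd among white adipocyte markers and Cdh5 among endothelial markers, named after their values were seen, were lower in every PexRAP-AKO than in every Control library. Each was the only gene of its list of 8 without overlap of the groups. Of all 14913 genes tested, 508 had no overlap, counted in either direction. The part of these markers in the results was not tested. Some fits below hold a marker score, but a score can itself change with genotype, so those fits cannot show that part.

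Across the pathway, 9 of the 10 genes had a higher average in PexRAP-AKO than in Control and Pck1 had a lower one, but none passed edgeR's quasi-likelihood test after Benjamini-Hochberg adjustment over 14913 genes. In that test 15 genes passed, 0.101% of those tested. At an unadjusted p under 0.05, 6 of the 10 were higher (Mpc1, Mpc2, Pdhb, Dlat, Dld and Pdk4) and 0 lower, against 9.01% of all genes tested that were higher and 6.44% that were lower at that level. The median log2 fold change of the 10 was 0.38, with 49.8% of all genes tested above 0 and a median over all genes of -0.00070. DESeq2, an alternative test, called 2 of the 10, Dlat (adjusted p = 0.0163) and Dld (adjusted p = 0.0343), against 2.78% of the genes it adjusted that were called higher, and limma voom called 0. In whole tissue, fewer cells of a type and less RNA per cell cannot be told apart. The labels do not say that each library is a separate mouse, and if it is not, these p-values measure only the spread between libraries.

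**Figure D1:**
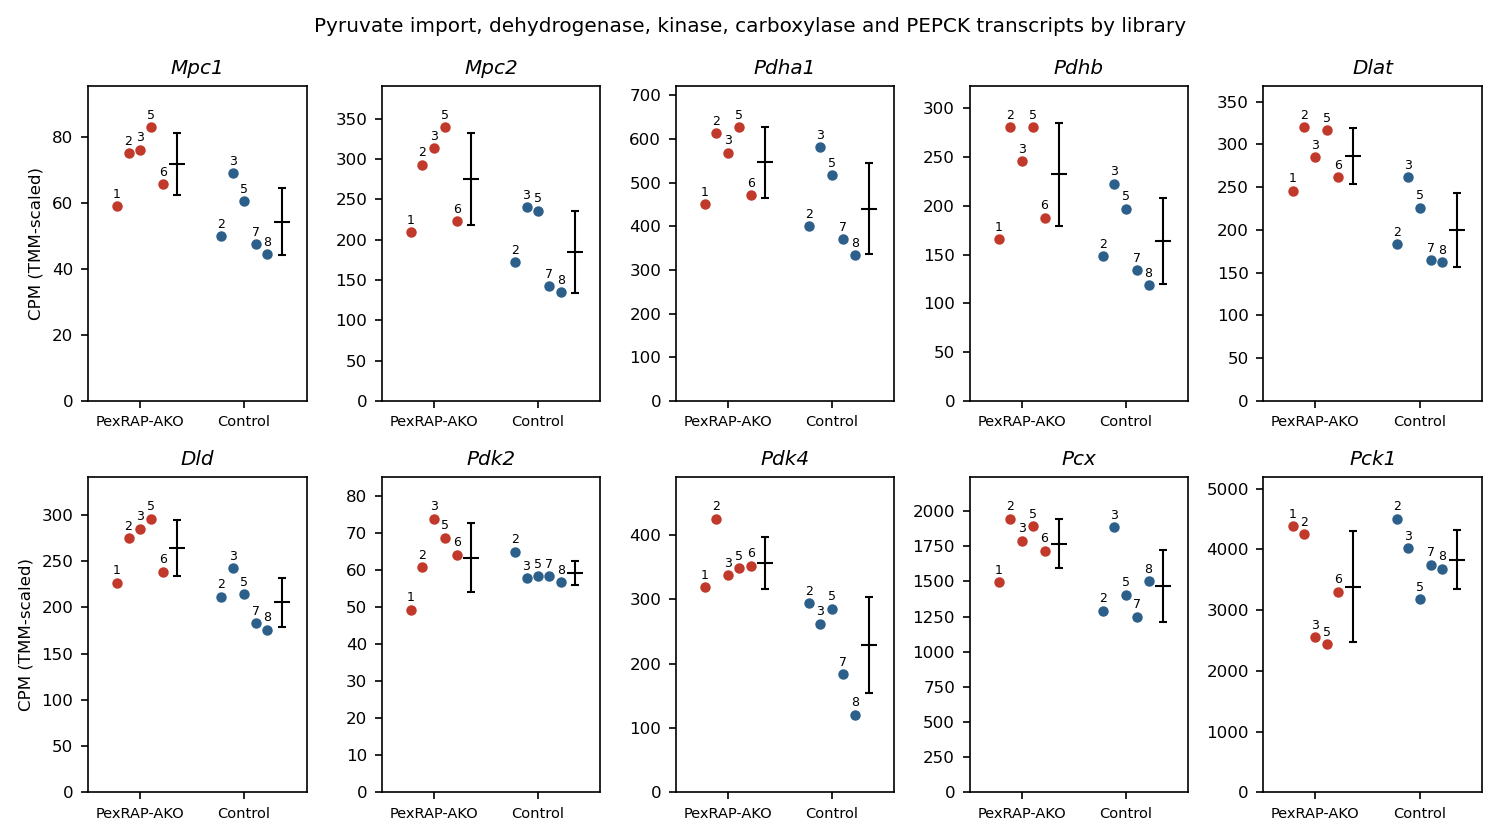
TMM-scaled CPM (vertical axes, from 0) of the 10 genes in each PexRAP-AKO (red) and Control (blue) library, with replicate numbers beside the points and the mean ± SD (n = 5) as black bars. All PexRAP-AKO points lie above all Control points for Pdk4 alone, as in 2.08% of all genes tested. Control 8 is the lowest Control library for 8 of the 10 genes.

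Both carrier subunits were higher on average in PexRAP-AKO, with overlapping groups. Mpc2 (chromosome 1, 165460637 to 165481214, GRCm38) had 209.6, 293, 314, 339.9 and 223 CPM in PexRAP-AKO replicates 1, 2, 3, 5 and 6, against 172, 241, 236, 142 and 135 CPM in Control replicates 2, 3, 5, 7 and 8. PexRAP-AKO 1 and 6 lay inside the Control range, and the other 3 lay above it. Its log2 fold change was 0.57 (SE 0.20, edgeR adjusted p = 0.2185). Mpc1 averaged 71.9 ± 9.45 CPM in PexRAP-AKO and 54.4 ± 10.3 CPM in Control (SD, n = 5 each), a log2 fold change of 0.40 (SE 0.13, edgeR adjusted p = 0.201). The lowest PexRAP-AKO library, replicate 1 at 59.1 CPM, lay below Control 3 (69.2 CPM) and Control 5 (60.7 CPM). The processed pseudogene Mpc1-ps held 1838 counts over the 10 libraries beside 9058 for Mpc1, so reads may be split between them and the Mpc1 level is uncertain. Mpc1 (chromosome 17, 8282904 to 8297661, GRCm38) also shares 480 exon bases with the opposite-strand transcript 4930506C21Rik, which held 341 counts.

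The 4 catalytic genes of the dehydrogenase complex leaned the same way, and Dlat and Dld, for its E2 and E3 enzymes, were the closest to a separation of the groups. Dlat (chromosome 9, 50634633 to 50659780) encodes the E2 acetyltransferase that forms acetyl-CoA and builds the core of the complex. It had 246, 320.3, 285, 317 and 262 CPM in PexRAP-AKO replicates 1, 2, 3, 5 and 6, against 183, 262, 226, 164 and 162 CPM in Control replicates 2, 3, 5, 7 and 8. Every PexRAP-AKO library exceeded 4 of the 5 Control libraries, and Control 3 lay above PexRAP-AKO 1 and just above PexRAP-AKO 6. Its log2 fold change was 0.52 (SE 0.14), with the lowest adjusted p of the 10 in edgeR (0.145).

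Dld (chromosome 12, 31331277 to 31351453) encodes the E3 dihydrolipoamide dehydrogenase, which re-oxidises the lipoyl arm and is shared with other 2-oxoacid dehydrogenases. It had 227, 275, 285, 296 and 239 CPM in PexRAP-AKO replicates 1, 2, 3, 5 and 6, against 212, 242, 214, 183 and 176 CPM in Control replicates 2, 3, 5, 7 and 8. Again Control 3 was the only Control library above any PexRAP-AKO library. The log2 fold change was 0.36 (SE 0.10, edgeR adjusted p = 0.170).

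The E1 genes were more spread within groups. Pdhb, the E1 beta subunit (chromosome 14, 8165996 to 8173025), averaged 232 ± 53.0 CPM in PexRAP-AKO and 164 ± 44.0 CPM in Control (SD, n = 5 each), a log2 fold change of 0.50 (SE 0.20, edgeR adjusted p = 0.281). Pdha1, the X-linked E1 alpha subunit that the PDK kinases phosphorylate, averaged 546 ± 81.1 CPM in PexRAP-AKO and 441 ± 104 CPM in Control, a log2 fold change of 0.31 (SE 0.16, edgeR adjusted p = 0.383). Control 3 (582 CPM) and Control 5 (517 CPM) lay inside the PexRAP-AKO range of 450.3 to 627 CPM for Pdha1. Within a library, the CPM of Pdha1 was 2.39 ± 0.22 times that of Pdhb in PexRAP-AKO and 2.70 ± 0.08 times in Control (SD, n = 5 each), and the PexRAP-AKO range of 2.185 to 2.711 overlapped the Control range of 2.608 to 2.801. Pdha1 (chromosome X, 160122209 to 160138413, GRCm38) shares 603 exon bases with Map3k15 on the other strand, but Map3k15 held 445 counts over the 10 libraries against 71374 for Pdha1.

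Both kinase genes had positive estimates, with that of Pdk4 the larger; the difference between them was not tested. Pdk4 (chromosome 6, 5483351 to 5496309) had 319, 426, 337, 348.5 and 353 CPM in PexRAP-AKO replicates 1, 2, 3, 5 and 6, against 294, 262, 286, 184 and 121 CPM in Control replicates 2, 3, 5, 7 and 8. All 5 PexRAP-AKO libraries lay above all 5 Control libraries, as did 2.08% of all genes tested, and the nearest pair was PexRAP-AKO 1 and Control 2. The log2 fold change of 0.64 (SE 0.22) was the largest of the 10, yet the Control spread was wide, at 32.5% of the mean in Control against 11.4% in PexRAP-AKO, and edgeR's adjusted p was 0.213. Control 7 and 8, the lowest libraries for Pdk4, were also the lowest in brown adipocyte marker score, and Control 8 held the most skeletal muscle marker transcripts. With PexRAP-AKO 6 and Control 8 both left out, a choice made after seeing the data, the log2 fold change of Pdk4 was 0.48 (edgeR adjusted p = 0.289).

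Pdk2, the more broadly expressed kinase isoform (chromosome 11, 95026258 to 95041354), averaged 63.3 ± 9.29 CPM in PexRAP-AKO and 59.2 ± 3.27 CPM in Control (SD, n = 5 each). All 5 Control libraries fell between 56.6 and 64.9 CPM, whereas PexRAP-AKO ran from 49.2 CPM in replicate 1 to 73.8 CPM in replicate 3. Its log2 fold change was 0.10 (SE 0.09, edgeR adjusted p = 0.66), and 0.037 without PexRAP-AKO 3 to 0.17 without PexRAP-AKO 1. The Pdk4 CPM was 5.73 ± 1.006 times the Pdk2 CPM in PexRAP-AKO and 3.855 ± 1.169 times in Control (SD, n = 5 each). The 2 groups overlapped in that ratio, with 4.57 to 7.02 in PexRAP-AKO and 2.14 to 4.91 in Control.

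Pyruvate carboxylase and phosphoenolpyruvate carboxykinase, the abundant enzymes of the set, leaned in opposite directions, and neither passed. Pcx (chromosome 19, 4510472 to 4621752) had 1496, 1947, 1789.8, 1895 and 1718 CPM in PexRAP-AKO replicates 1, 2, 3, 5 and 6, against 1291, 1884.5, 1405, 1249 and 1500.5 CPM in Control replicates 2, 3, 5, 7 and 8. Control 3 lay among the upper PexRAP-AKO values, Control 8 just above PexRAP-AKO 1, and the other 3 Control libraries below every PexRAP-AKO library. The log2 fold change of Pcx was 0.27 (SE 0.12, edgeR adjusted p = 0.324).

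Pck1 (chromosome 2, 173153048 to 173159273) had 4388, 4253, 2556, 2442.5 and 3302 CPM in PexRAP-AKO replicates 1, 2, 3, 5 and 6, against 4508, 4022, 3176, 3752 and 3683 CPM in Control replicates 2, 3, 5, 7 and 8. PexRAP-AKO 3 and 5 lay below every Control library, while PexRAP-AKO 1 and 2 lay above 4 of the 5. The log2 fold change was -0.18 (SE 0.18, edgeR adjusted p = 0.676), and -0.29 without PexRAP-AKO 1 to -0.083 without PexRAP-AKO 5. PexRAP-AKO 3 and 5 were also the 2 libraries with the highest summed brown adipocyte markers (2964 and 2908 CPM) and the lowest summed white adipocyte markers (30863 and 30964 CPM). The spread of Pck1 within PexRAP-AKO was 27.0% of the mean, against 12.7% in Control. The ratio of Pcx to Pck1 CPM was accordingly uneven, from 0.341 in PexRAP-AKO 1 to 0.776 in PexRAP-AKO 5, against 0.286 to 0.469 over the Control libraries.

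Levels of different genes were compared per kilobase of annotated exon. Pck1 was the highest, at 988 ± 267 CPM per kb in PexRAP-AKO and 1116 ± 142 CPM per kb in Control (SD, n = 5 each), and Pcx came next, at 372 ± 37.2 in PexRAP-AKO and 308 ± 53.4 in Control. Both stood clear of the next gene in all 10 libraries. Pdha1 followed at 146 ± 21.7 CPM per kb in PexRAP-AKO and 118 ± 28.0 in Control, and its range over libraries met that of Pdk4 (102 ± 11.6 in PexRAP-AKO and 65.3 ± 21.3 in Control). From there down, each gene's range met the next in the order of Control means, which was Dld, Pdhb, Dlat, Mpc1, Mpc2 and Pdk2. In PexRAP-AKO the mean of Mpc2 (37.6 CPM per kb) lay above that of Mpc1 (34.5 CPM per kb). Pdk2 was the lowest at 20.01 ± 2.94 CPM per kb in PexRAP-AKO and 18.7 ± 1.03 in Control. The exon lengths come from GENCODE M21 and may differ from those behind the counts, and Mpc2 has long annotated exons (7344 bases in all), so its place is the least sure.

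The carrier and the catalytic genes varied together from library to library. Over the 15 pairs among Mpc1, Mpc2, Pdha1, Pdhb, Dlat and Dld, Pearson's r of log2 CPM over the 10 libraries ran from 0.923 to 0.987 and Spearman's rho from 0.927 to 0.988. With each group's mean removed, r still ran from 0.898 to 0.986. These are descriptions over libraries that share depth and tissue make-up. PexRAP-AKO 1 was the lowest PexRAP-AKO library for 9 of the 10 genes, the exception being Pck1, for which it was the highest. Control 8 was the lowest Control library for 8 genes and Control 3 the highest for 7. Control 3 and 5, the 2 deepest libraries of the series, gave the highest and second highest Control value of Mpc1, Mpc2, Pdha1, Pdhb, Dlat and Dld. PexRAP-AKO went the other way. Its replicate 5 was the shallowest library of the series (11274865 counts). That library was the highest of the 10 for Mpc1, Mpc2, Pdha1, Pdhb and Dld, and second highest for Dlat. A link of these genes with depth was not tested. When the fit held log2 library total as a further term, which was also chosen after seeing the data, Dlat passed in edgeR (log2 fold change 0.60, adjusted p = 0.0348) and the other 9 did not. Of all 14913 genes tested, 121 passed in that fit, against 15 in the fit without the term.

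**Figure D2:**
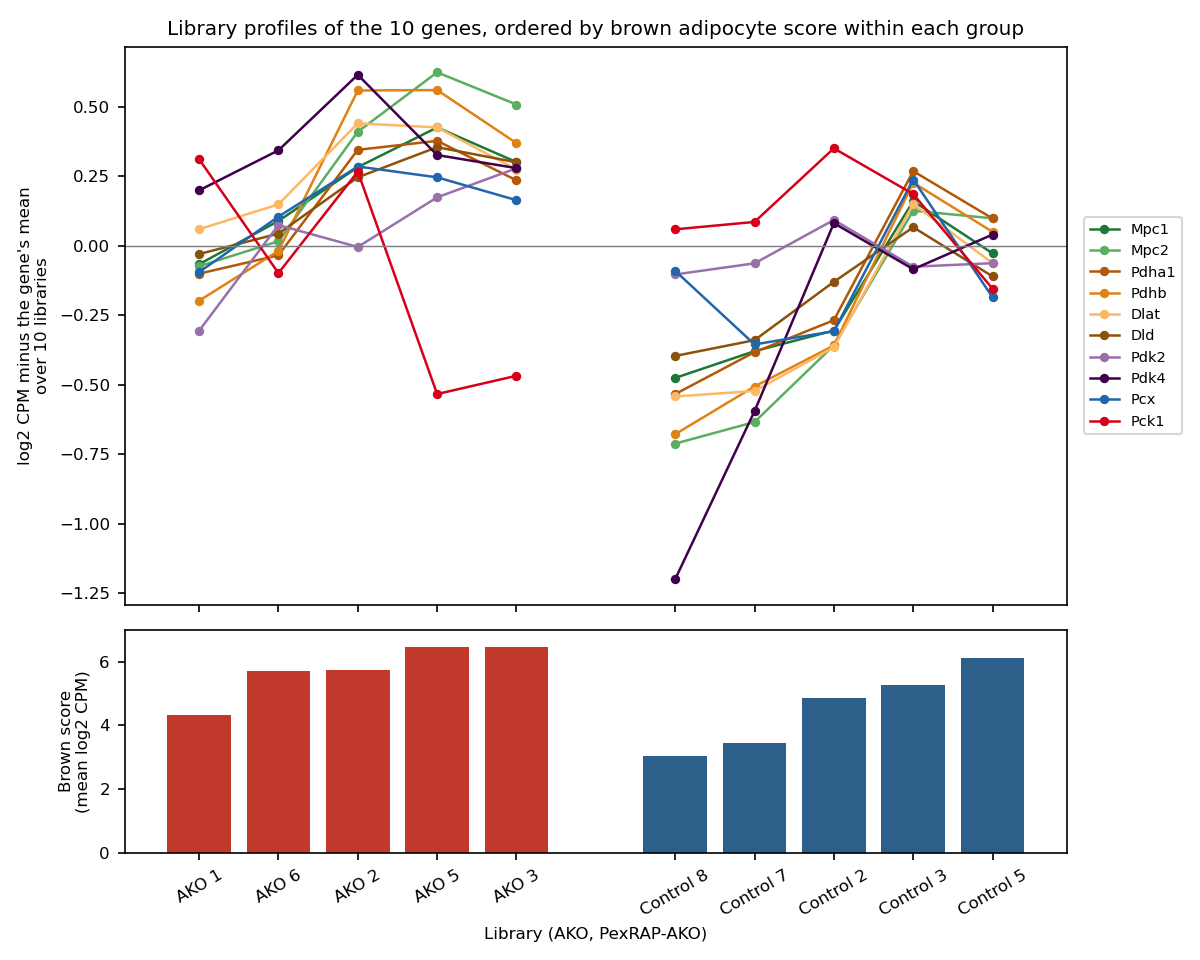
Upper panel, log2 CPM of each of the 10 genes minus its mean over the 10 libraries (vertical axis), PexRAP-AKO libraries on the left and Control libraries on the right, each ordered by brown adipocyte score. Lower panel, that score (mean log2 CPM of 11 markers); the carrier and catalytic genes run together, low in Control 7 and 8, whereas Pck1 is lowest in PexRAP-AKO 3 and 5.

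Brown adipocyte markers varied with these genes. Of the 11 tested markers, all had a positive log2 fold change (median 0.88) and 0 passed in edgeR. That of Lhx8 was only 0.0046, and 49.8% of all genes tested were above 0. Their score, the mean log2 CPM of the 11 tested markers, was 4.34, 5.74, 6.47, 6.46 and 5.71 in PexRAP-AKO replicates 1, 2, 3, 5 and 6, against 4.86, 5.27, 6.12, 3.44 and 3.05 in Control replicates 2, 3, 5, 7 and 8. Over the 10 libraries, the score correlated with the 6 carrier and catalytic genes at r = 0.832 (Dlat) to 0.922 (Mpc2), with Pdk4 at 0.821, with Pdk2 at 0.625, with Pcx at 0.609 and with Pck1 at -0.579, given as descriptions. Ucp1, the uncoupling protein of brown fat, ran from 94.1 to 1603 CPM in PexRAP-AKO and from 28.6 to 1159 CPM in Control. In an edgeR fit that held this score as a further term, the log2 fold changes of Mpc1 (0.19), Mpc2 (0.24), Pdha1 (0.06), Pdhb (0.17), Dld (0.20), Dlat (0.32) and Pdk4 (0.38) were each lower than without it, and the sign of Pdk2 turned (-0.014). That of Pcx was 0.17 and that of Pck1 was -0.032, with adjusted p-values from 0.5 (Dlat) to 0.982 (Pdk2) over the 10 genes. The median of the 10 was then 0.18. At an unadjusted p under 0.05, Dlat, Dld and Mpc2 were then higher, and 8.14% of all genes were past that level in either direction. A fit with the skeletal muscle score in its place gave a median of 0.32.

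**Figure D3:**
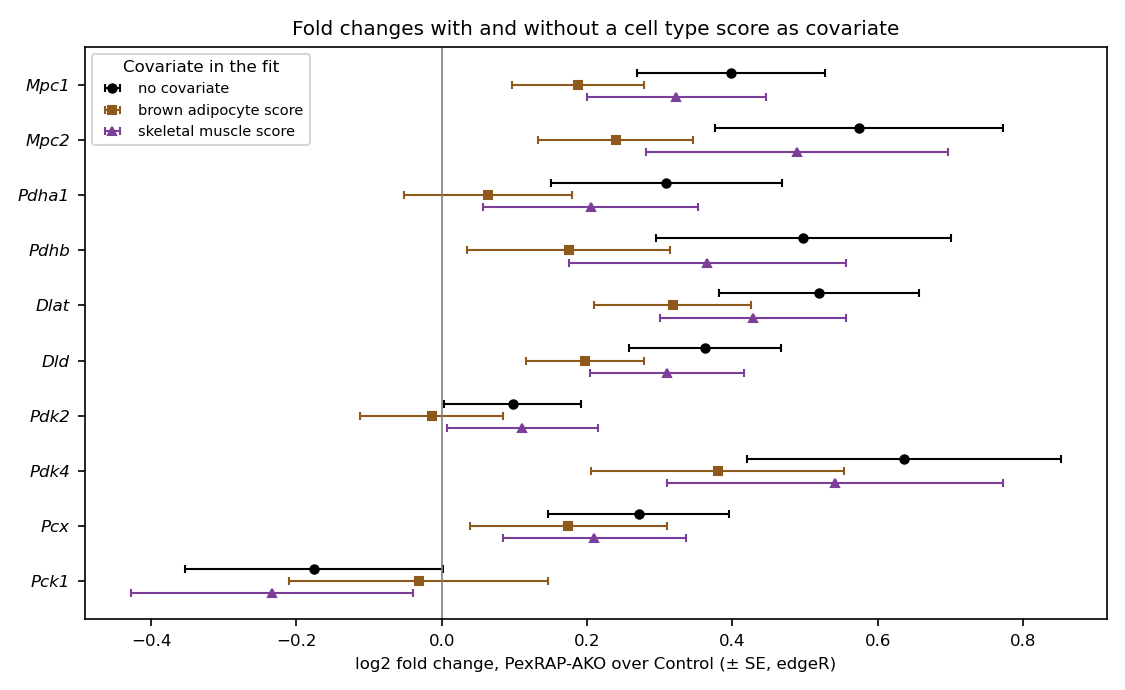
Log2 fold change of PexRAP-AKO over Control with its SE (horizontal axis) for each of the 10 genes from edgeR fits with no covariate, with the brown adipocyte score and with the skeletal muscle score. With the brown adipocyte score the estimates move toward 0, to 0.06 for Pdha1 and 0.32 for Dlat.

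The genes whose library profiles were most like those of 5 members were named by the highest Pearson's r among 12994 tested genes over the 10 libraries. For Mpc1 they were Pdhx (r = 0.989, rho = 0.976), the E3-binding protein of the same dehydrogenase complex, Atp5f1 (r = 0.985, rho = 0.964), a subunit of ATP synthase, and Mrpl30 (r = 0.983, rho = 0.952), a mitochondrial ribosomal protein. For Pdhb they were Pdha1 (r = 0.987, rho = 0.988), its partner in E1, Coasy (r = 0.986, rho = 0.988), the last enzyme of coenzyme A synthesis, and Ndufb10 (r = 0.985, rho = 0.988), a subunit of complex I. Pdk4 was most like Acadm (r = 0.973, rho = 0.867), the medium-chain acyl-CoA dehydrogenase, Coq10a (r = 0.963, rho = 0.855) and Dnajc15 (r = 0.947, rho = 0.903). Pcx was most like Slc25a10 (r = 0.959, rho = 0.964), the dicarboxylate carrier of the inner mitochondrial membrane, then Exosc3 (r = 0.949, rho = 0.891) and Adcy10 (r = 0.941, rho = 0.915). Exosc3 and Adcy10 averaged only 11.12 and 3.235 CPM over the 10 libraries. Pck1 kept other company, with Aplp2 (r = 0.975, rho = 0.964), Paqr4 (r = 0.973, rho = 0.939) and Plin1 (r = 0.966, rho = 0.988), the perilipin of the white adipocyte lipid droplet.

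Genes next to these in the pathway were followed in 6 lists, and none of their members passed edgeR over all genes, so counts are given at an unadjusted p under 0.05 beside the 9.01% of all genes that were higher and the 6.44% that were lower at that level. DESeq2 calls are given out of the genes it adjusted, in the order of the 6 lists as they follow. The first 3 lists had 1 of 14 (Pdhx), 1 of 10 (Gpt) and 3 of 13 (Slc25a1, Mdh1 and Slc25a10). The last 3 had 2 of 12 (Tpi1 and Aldoa), 1 of 18 (Plin2) and 2 of 20 (Srebf1 and Nr1h3). All these were higher, beside 2.78% called higher among all genes that DESeq2 adjusted. Among partners of the dehydrogenase complex, 6 of 14 tested genes were higher and 0 lower, with a median log2 fold change of 0.16. Pdhx averaged 93.4 ± 14.2 CPM in PexRAP-AKO and 65.4 ± 13.4 CPM in Control (SD, n = 5 each), a log2 fold change of 0.51 (SE 0.15, edgeR adjusted p = 0.175). Pdp2, a phosphatase that reverses the PDK mark and re-activates the complex, was at 0.29 (SE 0.09, edgeR adjusted p = 0.185), so its estimate had the same sign as that of Pdk4. Lipt1, which places the lipoyl group on E2 subunits, was at 0.37, and Bola3, needed for lipoate synthesis, at 0.37 (edgeR adjusted p = 0.159 and 0.182).

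On the supply side, 3 of 11 tested genes for pyruvate supply and for its exit as lactate or alanine were higher and 0 lower, with a median of 0.32, or 0.049 in the fit that held the brown adipocyte score. Gpt, which exchanges pyruvate and alanine, averaged 203 ± 35.7 CPM in PexRAP-AKO and 152 ± 14.98 CPM in Control (log2 fold change 0.42, SE 0.12, edgeR adjusted p = 0.156). Gpt2, its mitochondrial counterpart, named after its values were seen, had the opposite sign, at 301 ± 52.7 CPM in PexRAP-AKO and 369 ± 57.3 CPM in Control (log2 fold change -0.29, SE 0.14, edgeR adjusted p = 0.345). Ldha, the main lactate dehydrogenase subunit of glycolytic tissue, was at 0.32 and Ldhd, which oxidises D-lactate, at 0.32, and Slc16a1, a carrier of lactate and pyruvate at the cell surface, at 0.32. Their adjusted p-values in edgeR were 0.209, 0.19 and 0.329.

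The citrate-malate-pyruvate cycle, which moves acetyl units to the cytosol, had 9 of 15 genes higher and 0 lower, with a median of 0.33. Slc25a1, the citrate carrier, averaged 699.7 ± 151 CPM in PexRAP-AKO and 420.1 ± 126 CPM in Control (SD, n = 5 each), a log2 fold change of 0.74 (SE 0.21, edgeR adjusted p = 0.175). Slc25a10 was at 0.60 (SE 0.17, edgeR adjusted p = 0.1598), Mdh1, the cytosolic malate dehydrogenase, at 0.48 (SE 0.13, edgeR adjusted p = 0.143) and Slc25a11, the oxoglutarate carrier, at 0.32 (SE 0.11, edgeR adjusted p = 0.207). Without Control 3 alone, Slc25a10 passed (0.78, edgeR adjusted p = 0.0219). Control 3 was the library that stood well above the other Control libraries for this gene, at 477 CPM. Over all genes, 43 passed without Control 3, against 15 with every library kept.

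Among genes between phosphoenolpyruvate and glycerol 3-phosphate, 3 of 12 were higher and 1, Pck2, was lower. Pck2, the mitochondrial counterpart of Pck1, averaged 22.1 ± 2.41 CPM in PexRAP-AKO and 26.0 ± 3.04 CPM in Control (SD, n = 5 each), a log2 fold change of -0.24 (SE 0.10, edgeR adjusted p = 0.284), so both carboxykinase genes had negative estimates. Tpi1, triosephosphate isomerase, was at 0.43 (SE 0.10, edgeR adjusted p = 0.125), Aldoa, an aldolase, at 0.50 (SE 0.16, edgeR adjusted p = 0.188) and Pgam1, phosphoglycerate mutase, at 0.51 (SE 0.18, edgeR adjusted p = 0.213). Pgam1 and other glycolytic genes have many pseudogene copies that can split reads, and their levels are uncertain. The list median was 0.37, and it was -0.0098 in the fit that held the brown adipocyte score.

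Of 19 genes known to answer fasting, PPAR ligands or glucocorticoid, as Pdk4 does, 5 were higher and 1 was lower, with a median of 0.09. Plin2, a lipid droplet protein, averaged 603 ± 92.5 CPM in PexRAP-AKO and 391 ± 88.6 CPM in Control (SD, n = 5 each), a log2 fold change of 0.62 (SE 0.16, edgeR adjusted p = 0.133). Acot1 and Acot2, acyl-CoA thioesterases, were at 0.92 and 0.26, and Acadm at 0.27 (edgeR adjusted p = 0.185, 0.229 and 0.2185). Acadm was the only one of the list in which all PexRAP-AKO libraries lay above all Control libraries, as in 2.08% of all genes tested. Acot1 lay at only 3.06 ± 1.19 CPM in PexRAP-AKO and 1.61 ± 0.37 CPM in Control. The lower gene was Zbtb16, a zinc finger factor induced by glucocorticoid, named after its values were seen. It averaged 175 ± 50.3 CPM in PexRAP-AKO and 257 ± 50.3 CPM in Control (log2 fold change -0.55, SE 0.199, edgeR adjusted p = 0.2315).

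Of 20 transcription factors and cofactors known to act on Pdk4 or Pck1, 5 were higher and 4 lower, with a median of -0.027. Ppargc1a, a coactivator of mitochondrial genes, was at 0.43 (SE 0.15, edgeR adjusted p = 0.225), Srebf1 at 0.30 (SE 0.09, edgeR adjusted p = 0.185) and Nr1h3, which encodes LXR alpha, at 0.195 (SE 0.06, edgeR adjusted p = 0.18). Nr1h3 averaged 142 ± 5.38 CPM in PexRAP-AKO and 124 ± 8.33 CPM in Control. All its PexRAP-AKO values lay above all its Control values, as in 2.08% of all genes tested, and it was the only 1 of the 20. Foxo3, a forkhead factor restrained by insulin, was at -0.20 (SE 0.07, edgeR adjusted p = 0.201).

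**Figure D4:**
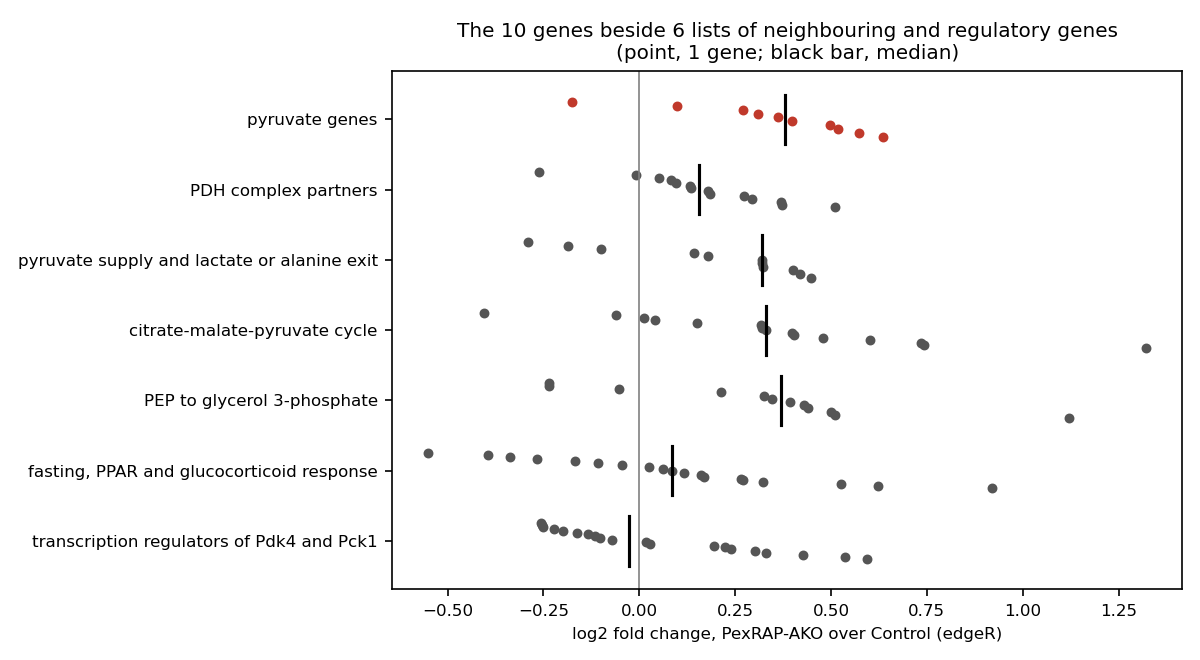
Log2 fold change of PexRAP-AKO over Control (horizontal axis) for each of the 10 genes (red) and each tested gene of the 6 lists (grey), with list medians as black bars. The medians run from 0.38 for the 10 genes to -0.027 for the transcription regulators.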

How the data were processed

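RNA of inguinal white fat was sequenced in 10 libraries, grouped by the genotype in the sample titles. The authors deposited 1 table of unnormalised read counts, with genes in rows and libraries in columns. Per the submitters' processing notes, STAR 2.0.4b, Subread, featureCounts and edgeR were used. Neither build nor strand setting is given in the sources used here, so reads of opposite-strand genes cannot be separated. Of 40724 rows, 117 repeated identifiers with identical counts were reduced to 1 row each. The members and lists were chosen with earlier results of these data known.

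Genes with low counts were removed by filterByExpr (10 in a library, 15 in all), and the 14913 that stayed, all 10 members among them, were scaled by TMM. PexRAP-AKO and Control were compared with edgeR 4.0.16 (R 4.3.3), quasi-likelihood F test, robust dispersion, no covariate, Benjamini-Hochberg adjustment over all genes and a threshold of 0.05. SE is the fold change over the square root of F. Log2 CPM used a prior count of 2. DESeq2 1.42.0, limma 3.58.1 voom, other scalings, filters and covariates, a replicate block and each library left out were the alternatives. Functions were tested on simulated counts. No library repeated another (lowest chi-square per degree of freedom 7.73). Positions and exon lengths came from GENCODE M21 (GRCm38) and promoters from RefSeq (GRCm38.p6). Named genes were the members, Dhrs7b, up to 4 genes per list by p, and the 3 genes most like each of 5 members. Others, such as Adipoq and Ckm, were named as markers or after their values were seen.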

Additional observations from a re-analysis of the deposited data

Results flagged for a closer look

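In 92 groups of 5 values, 7 (7.61%) had 1 library standing well apart; by chance about 1 group in 20 does (4.6 here). Values are log2 CPM. Pdk2 was high in Control 2 (6.02), above 4 Control libraries that lay close together. Control 3 was high for Gpt (7.48), Ldhd (5.39) and Slc25a10 (8.90). Control 8 was low for Ppargc1a (4.17), and Control 5 for Aplp2 (10.08). PexRAP-AKO 1 was low for Srebf1 (9.10).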

How the results depend on the processing

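The count of 15 called genes (14 higher, 1 lower) became 26 (22 and 4) when low counts were kept, 414 (305 and 109) in DESeq2, 107 (88 and 19) in limma voom using library weights, 98 (81 and 17) at an adjusted p under 0.1, 6 (5 and 1) with the brown adipocyte or the skeletal muscle score and 35 (32 and 3) with the T and B cell score. Leaving out 1 library gave 3 (without Control 8) to 58 (without PexRAP-AKO 1). Of the alternatives chosen after seeing the data, log2 library total gave 121 (102 and 19) and leaving out PexRAP-AKO 6 with Control 8 gave 5 (3 and 2). The cause of these moves was not tested. Of the 10 pyruvate genes, 0 passed in edgeR, 2 with DESeq2 (Dlat and Dld) and 1 with library total (Dlat). In every other alternative, each library left out included, 0 passed; the count at an unadjusted p under 0.05 ran from 3 (brown adipocyte score, with 8.14% of all genes past that level in either direction) to 9 (without PexRAP-AKO 1, with 17.7%), and 9 of 10 had positive fold changes except with the brown adipocyte score (8). Over 25 alternatives, the log2 fold change of Dlat ran from 0.32 to 0.64, Pdk4 from 0.38 to 0.74 and Pck1 from -0.38 to -0.032. With the brown adipocyte score, Pdk2 (-0.014) and Plin1 (0.0076) reversed. Of 900 values of 36 other named genes, 881 stayed on their side and 18 gained a call.

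With the replicate block (numbers 2, 3 and 5, 6 libraries), 3 genes were called (2 higher) and 0 of the 10 pyruvate genes. Deviations of same-numbered libraries correlated at -0.021, -0.081 and 0.36. Libraries with different numbers were not compared in this way, so these values cannot decide whether the numbers mark pairs. Of the 10 pyruvate genes, Pdk2 had the fewest counts (8673 over the 10 libraries).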
